A study of Mus musculus with 9 samples.

Results

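Genes of the otic mesenchyme and its fibrocytes were followed in the mouse cochlea at postnatal day 3: Pou3f4, Tbx18, Twist1, Pdgfra, Dcn, Lum, Postn, Otor and Car3. They were chosen by name, 9 of the 51912 genes in the files, and each was found by its Ensembl identifier. The libraries came from cochleae of Pou4f3(Δ/Δ) mice, called HOM, of Pou4f3(Δ/+) mice, called HET, and of Pou4f3(+/+) mice, called WT, with 3 libraries in each group; the series text describes the WT mice as littermates of the HET mice. The product of Pou4f3 is a POU-domain transcription factor that hair cells need to survive. The sources used here do not say how far the mutant allele Δ extends, which strain or sex was used, or whether animals were pooled. Groups follow the sample titles, since the genotype characteristic names a different genotype in each of the 9 samples, and every direction given here rests on the titles. Values are FPKM, fragments scaled to exon length in kilobases and to library depth. The HOM libraries list 1137 genes, among them 2 of the 9, Dcn and Lum; the other 7 were not analysed in HOM.

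The otic mesenchyme surrounds the epithelium of the developing cochlear duct and gives rise to the fibrocytes of the spiral ligament and spiral limbus and to the cartilage and bone of the otic capsule. Fibrocytes build the connective tissue on which the sensory epithelium and the stria vascularis rest, and they take part in returning potassium to the endolymph. Transcription factors such as Pou3f4 and Tbx18 are expressed in this mesenchyme and not in hair cells. In whole tissue, fewer cells of a type and less RNA in each cell cannot be told apart.

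Recovered depth lay between 14318000 and 17406000 fragments per library. Pou4f3 itself was at 5.92, 1.36 and 9.39 FPKM in HOM, against 24.21, 21.74 and 25.56 FPKM in HET and 25.02, 24.49 and 26.97 FPKM in WT. The HET and WT values overlapped, so Pou4f3 does not tell the HET label from the WT label. HET replicate 1 and WT replicate 3 stood apart from the other HET and WT libraries: Pearson r across the 15391 genes tested was 0.985 between them and at most 0.975 between either and any of the other 4, which correlated at 0.981 to 0.988 with each other. The summed level of 7 mitochondrially encoded genes was 15958.5 FPKM in HET 1 and 14267.7 FPKM in WT 3, against 9941.7 to 11438.9 FPKM in the other 4. Results below are given with and without this pair of libraries where it matters. As a description of the tissue, 60 further mesenchyme and fibrocyte genes and marker lists were read. Of the 60, 52 reached 1 FPKM in 3 or more of the 6 HET and WT libraries. Among them the fibrocyte genes Otos and Coch were at 31.85 to 48.67 and 24.73 to 40.04 FPKM in these libraries. There the 9 cartilage markers summed to 2099.8 to 2502.5 FPKM and the 9 bone markers to 30.4 to 60.7 FPKM.

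Levels in the HET and WT cochleae spanned more than 2 orders of magnitude. Otor, which encodes the secreted cochlear protein otoraplin, was by far the highest of the 9, with a mean of 2109 ± 293 FPKM over the 6 libraries (SD). Lum followed at 273 ± 12.2 FPKM. Pou3f4 at 71.1 ± 11.7, Dcn at 64.8 ± 8.10, Car3 at 62.4 ± 16.2 and Tbx18 at 53.7 ± 4.49 FPKM formed a middle group in which each gene's range overlapped that of its neighbour in the order. Pdgfra at 20.6 ± 3.15, Postn at 15.5 ± 1.12 and Twist1 at 11.2 ± 2.71 FPKM were lowest, again with overlapping ranges between neighbours. The ranges of Otor and Lum, of Lum and Pou3f4, and of Tbx18 and Pdgfra did not overlap. These levels are per annotated exon length, which runs from 949 bp for Otor to 10024 bp for Pdgfra, so that a long annotation lowers the FPKM. All 9 genes passed the filter on low values in every library, and the Twist1 value resting on the fewest fragments, 9.17 FPKM from 232 fragments in HET 3, has a 95% Poisson interval of 8.03 to 10.43 FPKM.

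**Figure D1:**
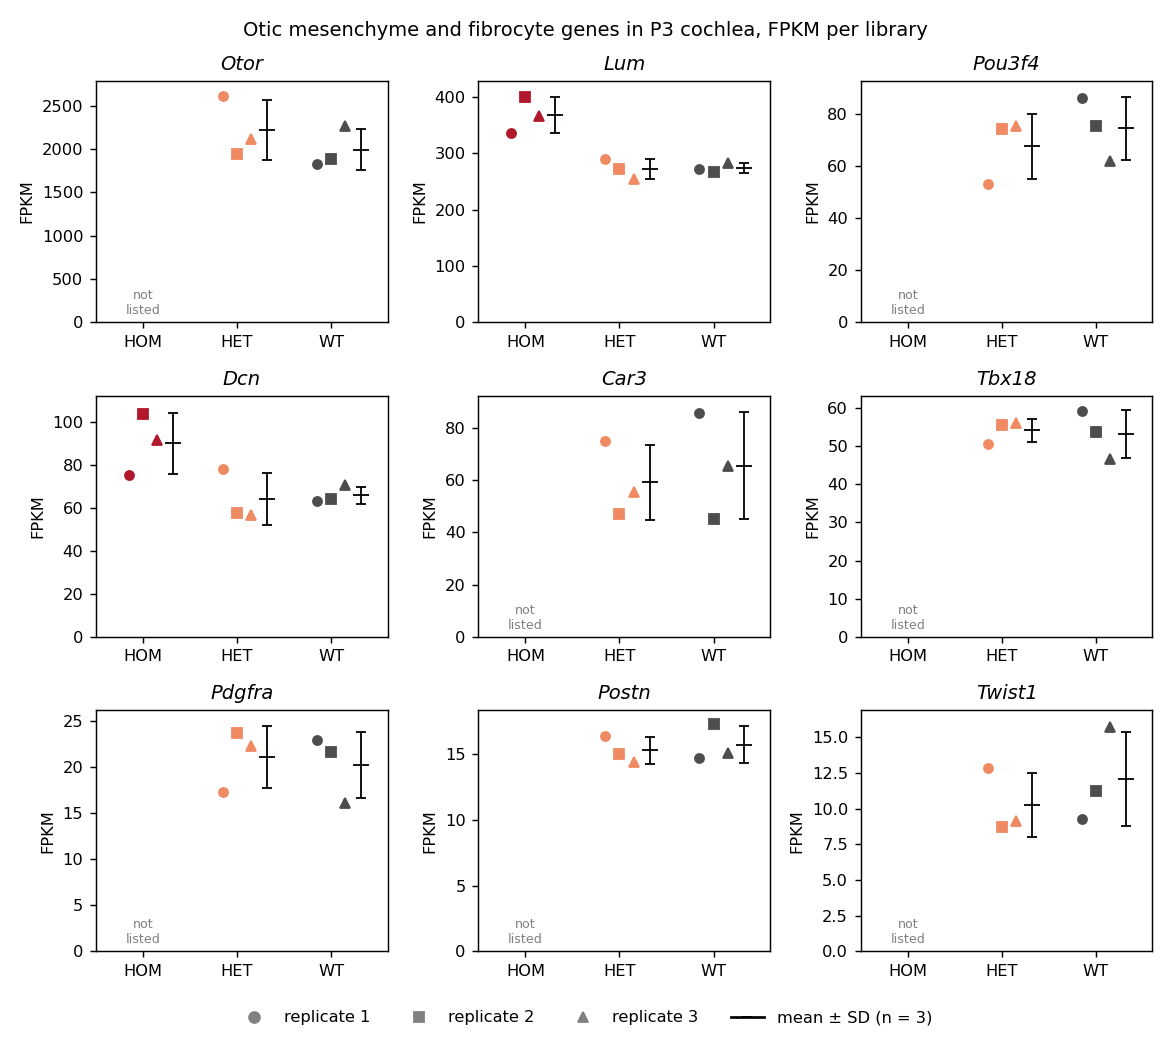
FPKM of each gene in each library (points; circles, squares and triangles are replicates 1, 2 and 3) with the group mean and SD beside them, for HOM, HET and WT, n = 3 each; genes are ordered by level and each axis starts at 0. Dcn and Lum are the genes listed in HOM; the HET and WT points of all 9 genes overlap.

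The transcription factors came first among the regulators. Pou3f4 encodes a POU-domain factor of the otic mesenchyme whose human counterpart is mutated in an X-linked deafness; the gene lies on chromosome X from 110814280 to 110817207 (GRCm38, + strand, 1 exon). It was at 53.07, 74.31 and 75.52 FPKM in HET and at 86.14, 75.62 and 61.97 FPKM in WT. The lowest HET library was replicate 1 and the lowest WT library replicate 3, and the groups overlapped. The difference, HET minus WT on log2(FPKM + 1), was -0.14 (95% interval -0.57 to 0.28, limma adjusted p = 0.99975). It was 0.02 without HET 1, -0.27 without WT 3 and -0.11 without both. Because the gene is X-linked, Xist, the noncoding RNA made from the inactive X, was read beside it: it was at 53.95, 107.88 and 56.88 FPKM in HET and at 0.08, 78.17 and 0.06 FPKM in WT. RNA of female cells was thus present in each HET library and in 1 of the 3 WT libraries, and the part of this in the Pou3f4 values was not tested.

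Tbx18 encodes a T-box factor needed in mouse for otic fibrocytes to differentiate and lies on chromosome 9 (87702800 to 87731260, - strand). It was at 50.63, 55.58 and 56.22 FPKM in HET and at 59.36, 53.78 and 46.66 FPKM in WT. HET 1 and WT 3 were again the lowest of their groups, the groups overlapped, and the difference was 0.03 (-0.23 to 0.28). Twist1, on chromosome 12 (33957671 to 33959829, + strand), encodes a basic helix-loop-helix factor of mesenchymal cells. Its values were 12.83, 8.72 and 9.17 FPKM in HET and 9.31, 11.22 and 15.71 FPKM in WT. Here HET 1 and WT 3 were the highest of their groups, the reverse of Pou3f4 and Tbx18. The difference of -0.21 (-0.72 to 0.30) was the largest in size of the 9, yet it was within the spread of the libraries. It ran from -0.37 to -0.016 (without WT 3) when single libraries were left out, and was -0.17 without HET 1 and WT 3 together.

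Pdgfra encodes the receptor through which mesenchymal cells read platelet-derived growth factor, and lies on chromosome 5 (75152292 to 75198215, + strand). It was at 17.31, 23.70 and 22.29 FPKM in HET and at 22.86, 21.58 and 16.11 FPKM in WT. As in Pou3f4 and Tbx18, HET 1 and WT 3 were the lowest of their groups, and the difference was 0.06 (-0.34 to 0.47). Its sign turned without HET 2 (-0.02) and without WT 3 (-0.08), but not without HET 1 and WT 3 together (0.05).

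The secreted and matrix genes followed. Otor, on chromosome 2 (143078473 to 143081713, + strand), was at 2611.42, 1948.12 and 2111.47 FPKM in HET and at 1830.72, 1886.96 and 2262.98 FPKM in WT. Each HET library except replicate 1 lay inside the WT range. The difference was 0.15 (-0.29 to 0.60), and it was 0.03 without HET 1, 0.25 without WT 3 and 0.13 without both. Postn, which encodes the matricellular protein periostin and lies on chromosome 3 (54361109 to 54391037, + strand), varied less. It was at 16.41, 15.03 and 14.41 FPKM in HET and at 14.72, 17.32 and 15.10 FPKM in WT, with a difference of -0.04 (-0.26 to 0.18). Over the 6 libraries its highest value was 1.20 times its lowest, against 1.14 for Lum, the steadiest of the 9, and 1.90 for Car3, the least steady.

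Car3 encodes carbonic anhydrase 3, an enzyme best known from skeletal muscle and fat, and lies on chromosome 3 (14863512 to 14872523, + strand). It was at 75.15, 47.05 and 55.52 FPKM in HET and at 85.96, 45.15 and 65.62 FPKM in WT. The WT libraries alone covered the whole range of the HET libraries, and the difference was -0.12 (-0.76 to 0.51), with the widest interval of the 9; it was 0.09 without WT 1, 0.03 without HET 2, -0.31 without HET 1 and -0.36 without WT 2. Markers of muscle and fat were therefore read beside it. The 12 skeletal muscle markers summed to 4.5 to 5.1 FPKM in HET and 3.6 to 4.7 FPKM in WT, and 7 of them, Acta1, Ckm, Myh3, Myh8, Myog, Tnnc2 and Tnni2, stayed under 0.5 FPKM in each of the 6 libraries. All 8 adipocyte markers, Adipoq and Plin1 among them, were under 0.5 FPKM, with sums of 0.4 to 0.8 FPKM in HET and 0.4 to 0.5 FPKM in WT. The highest Car3 library, WT 1, had the lowest muscle sum, 3.6 FPKM, and the next highest, HET 1, the highest, 5.1 FPKM; the part of muscle in the Car3 values was not tested.

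Twist1 and Otor moved against Pou3f4, Pdgfra and Tbx18 between libraries of the same group. Relative to the mean of its own group on log2(FPKM + 1), HET 1 was 0.32 higher for Twist1 and 0.24 higher for Otor, but deviated by -0.33 for Pou3f4, -0.26 for Pdgfra and -0.09 for Tbx18. WT 3 deviated the same way: 0.38 for Twist1, 0.19 for Otor, -0.25 for Pou3f4, -0.29 for Pdgfra and -0.18 for Tbx18. Dcn was 0.30 above its group mean in HET 1 and 0.10 above it in WT 3, whereas Postn was 0.10 above in HET 1 and deviated by -0.05 in WT 3. Lum was above by 0.09 in HET 1 and 0.05 in WT 3. Car3 was above by 0.36 and 0.05, but in WT 1 by 0.43. Gene length moved with the same libraries: over the 1878 tested genes with under 1000 bp of exon, the class of Otor, the median deviation was 0.08 in HET 1 and in WT 3. Over the 1806 tested genes with 1000 to under 2000 bp of exon the median deviation was 0.20 in HET 1 and 0.12 in WT 3, and over the 2397 genes with 8000 bp or more it was -0.19 in HET 1 and -0.10 in WT 3. In the other 4 libraries the median of the long genes was above 0, at 0.04 to 0.10. Otor (949 bp) and Twist1 (1628 bp) are the shortest of the 9 and Pdgfra (10024 bp) the longest, but Dcn (5838 bp) was high in HET 1 and Pou3f4 (2928 bp) low. Marker sums of some other cells were also highest in HET 1 and WT 3: the 5 Schwann cell and glial markers summed to 392.6 and 363.7 FPKM, against 193.9 to 308.7 FPKM in the other 4 libraries, and the 6 neuronal markers to 131.4 and 152.6 FPKM, against 76.8 to 115.8 FPKM. The cartilage list, at 2502.5 and 2418.0 FPKM against 2099.8 to 2392.8 FPKM, was also highest there. So were the supporting cell, erythroid and immediate early lists and, by small margins in HET 1, the hair cell and endothelial lists. Of the rest, some did neither and others went the opposite way. The stria markers were lowest there, at 13.3 and 12.8 FPKM against 17.7 to 40.9 FPKM. So were the pericyte and smooth muscle markers, at 24.8 and 27.1 FPKM against 27.6 to 30.9 FPKM. FPKM summed over all genes was highest there too, at 312688.1 and 304990.4, against 273015.7 to 283673.7. The part of exon length, of these cells, of the summed FPKM and of the mitochondrial level given above in these deviations was not tested.

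**Figure D2:**
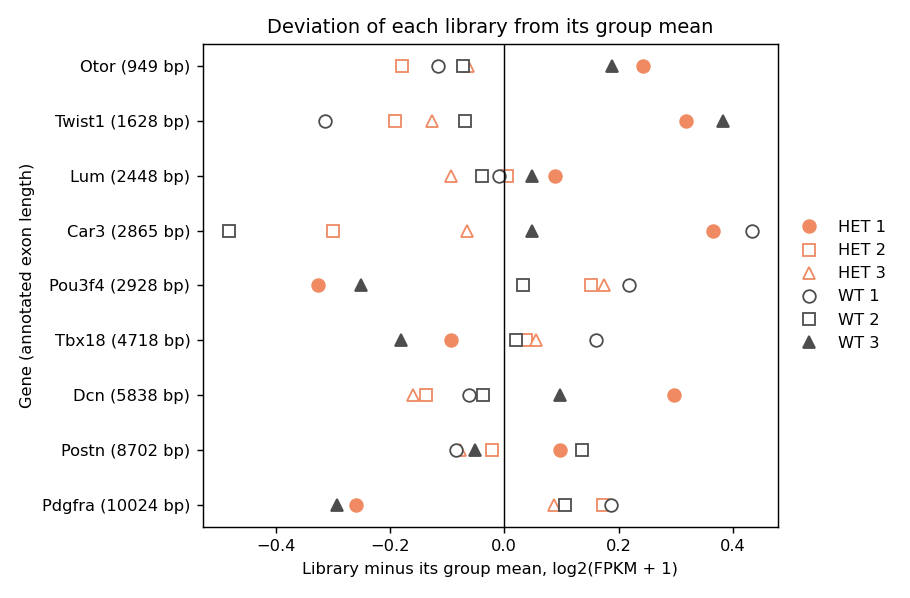
Deviation of each HET and WT library from the mean of its own group, on log2(FPKM + 1), for the 9 genes ordered by annotated exon length from short at the top to long at the bottom; filled symbols are HET 1 and WT 3 and open symbols the other 4 libraries, some of which overlap. HET 1 and WT 3 both lie right of 0 for Otor, Twist1, Lum, Car3 and Dcn, left of 0 for Pou3f4, Tbx18 and Pdgfra, and on either side of it for Postn.

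For these genes, the 250 bases before the RefSeq start are shown for Otor and Twist1, which were high in HET 1 and WT 3, and for Tbx18 and Pdgfra, which were low there. Pou3f4 was also low there, and its window is described below without its bases. RefSeq promoter entries on GRCm38.p6 matched 6 of the 9 genes; Dcn, Lum and Car3 had none. Capitals mark matches, on either strand, to the TATA motif TATAAA, to the GC box GGGCGG or to CATCTG, the last being an E-box form of the general pattern CANNTG. The positions are chr2:143078143-143078392, + strand for Otor, chr12:33957421-33957670, + strand for Twist1, chr9:87731261-87731510, - strand for Tbx18 and chr5:75152001-75152250, + strand for Pdgfra.
Otor: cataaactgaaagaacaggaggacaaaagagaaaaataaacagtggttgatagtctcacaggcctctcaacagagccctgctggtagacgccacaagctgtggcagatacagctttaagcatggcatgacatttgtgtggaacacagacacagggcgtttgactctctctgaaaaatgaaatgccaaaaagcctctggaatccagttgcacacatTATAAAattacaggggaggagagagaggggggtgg
Twist1: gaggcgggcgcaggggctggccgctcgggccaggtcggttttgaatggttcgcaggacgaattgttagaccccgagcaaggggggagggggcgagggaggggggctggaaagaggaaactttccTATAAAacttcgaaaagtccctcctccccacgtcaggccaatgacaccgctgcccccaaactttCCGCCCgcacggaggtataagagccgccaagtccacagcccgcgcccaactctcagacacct
Tbx18: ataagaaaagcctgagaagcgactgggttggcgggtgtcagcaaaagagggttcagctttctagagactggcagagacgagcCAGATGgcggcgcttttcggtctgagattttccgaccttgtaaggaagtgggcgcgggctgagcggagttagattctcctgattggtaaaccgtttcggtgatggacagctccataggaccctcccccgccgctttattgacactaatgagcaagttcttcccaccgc
Pdgfra: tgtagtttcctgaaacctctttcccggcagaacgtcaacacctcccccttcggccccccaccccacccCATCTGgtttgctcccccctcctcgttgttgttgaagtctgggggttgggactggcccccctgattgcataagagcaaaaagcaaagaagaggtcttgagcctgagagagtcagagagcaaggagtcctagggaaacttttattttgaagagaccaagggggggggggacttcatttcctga

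In Otor a TATAAA match began 35 bases before the start, and in Twist1 1 began 126 bases before it; 12.4% of 32851 promoter windows of this length hold TATAAA or its complement. GGGCGG was found in Twist1, 62 bases before the start, and in 32.7% of all windows. CATCTG was found in Tbx18 and Pdgfra, 168 and 182 bases before the start, and in 14.4% of all windows, each of which also matches CANNTG, found in 66.2%. CANNTG was also found in Otor, with 2 matches, and TATAAA also in a window of Postn, 26 bases before the start. The searches for the E-box forms CATATG and also CAGCTG, the octamer ATGCAAAT and the POU-type motif ATNNATAAT, found in 3.46%, 13.0%, 1.60% and 3.03% of all windows, had no match in the windows of the 6 genes. The windows of Otor and Twist1 differed in base composition, with 46.0% and 62.4% G or C, while the median over all windows was 52.4%. That of Pou3f4 had 58.0% G or C and no match to any motif searched, CANNTG included.

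With groups taken from the titles, the comparison of HET with WT asks what 1 mutant copy of Pou4f3 does. No difference between HET and WT cochleae passed the test in these genes: limma called 0 of the 9, all at an adjusted p of 0.99975, and 0 had an unadjusted p under 0.05. Across all 15391 genes tested it called 0 (0%) and 266 (1.73%) had an unadjusted p under 0.05. Without HET 1 it again called 0, but 1833 of 15151 genes had an unadjusted p under 0.05, and without HET 1 and WT 3 together 2356 of 14844; in each of these fits 1 of the 9, Dcn, was among them, at -0.20 and -0.15. Of the 9, 0 had HET libraries that all lay outside the WT range, which 5.94% of all genes tested did, 2.82% higher and 3.12% lower. By sign 3 of the 9 were higher and 6 lower in HET by mean difference, with a median difference of -0.04 against 0.00 over all genes, of which 50.4% were higher. The intervals reached down to -0.76 for Car3 and -0.72 for Twist1 and up to 0.60 for Otor, but lay between -0.26 and 0.28 for Lum, Postn and Tbx18. Without HET 1 and WT 3 together, 0 of the 9 were called, and the difference was -0.28 for Car3, -0.11 for Postn and -0.015 for Tbx18, the last with its sign turned.

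**Figure D3:**
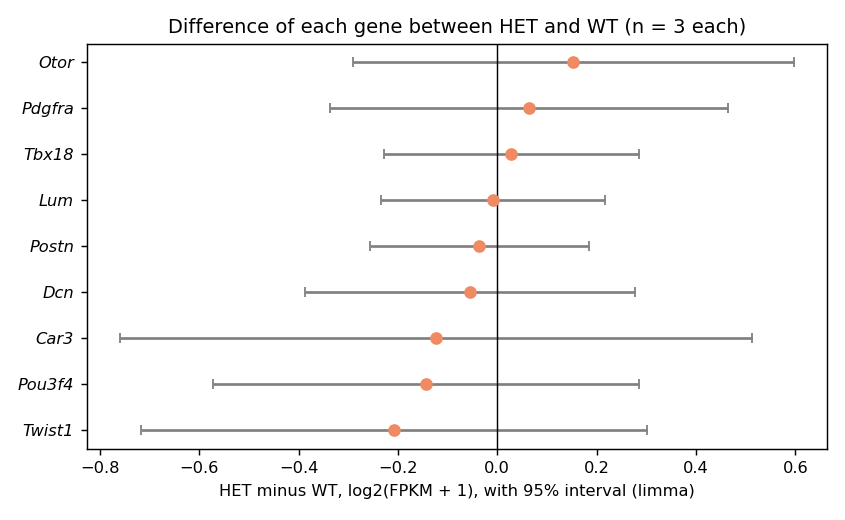
Difference of each gene between HET and WT, HET minus WT on log2(FPKM + 1), with limma's 95% interval, n = 3 each. All 9 intervals include 0; the narrowest are those of Postn and Lum and the widest is that of Car3.

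The genes most like the 9 were sought among the 15382 other tested genes by Pearson r of log2(FPKM + 1) over the 6 HET and WT libraries, as a description only, since those libraries include HET 1 and WT 3. The 9 did not move together: r between pairs of them ran from -0.96 for Twist1 and Pdgfra to 0.93 for Pdgfra and Tbx18. Their mean is thus no profile that the 9 share. The mean of the 9 standardised profiles was followed most closely by Hmgb2 (r = 0.996), Ptma (0.991), Slc14a1 (0.985), Cdc123 (0.985) and Brd7 (0.984). For single genes the closest were Ntan1 for Dcn (1.00), Asb8 for Lum (0.996), Tipin for Otor (0.994), Sipa1l3 for Pou3f4 (0.997), Tmem147os for Tbx18 (0.995), Haus2 for Car3 (0.997), C330013E15Rik for Postn (0.982), Gm22616 for Pdgfra (0.999) and Adprhl2 for Twist1 (0.999). No 2 of the 9 had the same closest gene. Each closest gene is the best of 15382 candidates over 6 libraries, so nothing is read from these matches or from their high r.

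Dcn and Lum were higher in HOM cochleae. They encode decorin and lumican, small leucine-rich proteoglycans that bind collagen fibrils and set their spacing. The genes are neighbours on chromosome 10, Dcn from 97479609 to 97518143 and Lum from 97565128 to 97572703, both on the + strand and 46984 bp apart. Dcn was at 75.14, 103.41 and 91.29 FPKM in HOM, against 77.77, 57.37 and 56.42 FPKM in HET and 62.89, 63.96 and 70.31 FPKM in WT. The HOM libraries lay above each WT library, but HOM 1 lay below HET 1. Lum was at 336.73, 401.08 and 366.70 FPKM in HOM, against 289.66, 273.10 and 255.08 FPKM in HET and 272.15, 266.62 and 283.35 FPKM in WT. Here the HOM libraries lay above all 6 others. In both genes HOM 2 was the highest and HOM 1 the lowest of the HOM libraries; HOM 2 also had the lowest Pou4f3, at 1.36 FPKM, whereas the highest Pou4f3 was in HOM 3.

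Dcn averaged 89.9 ± 14.2 FPKM in HOM and 65.7 ± 4.01 FPKM in WT (SD, n = 3 each), 137% of the WT mean and a difference of 0.44 (SE 0.12, 95% interval 0.15 to 0.72, limma adjusted p = 0.0176). Lum averaged 368 ± 32.2 FPKM in HOM and 274 ± 8.52 FPKM in WT (n = 3 each), 134% of the WT mean and a difference of 0.42 (SE 0.08, 0.24 to 0.61, adjusted p = 0.00633). In all 1109 listed genes tested (100%) the HOM and WT libraries did not overlap, with HOM higher in 30.9%, so the list was chosen on this difference and these p-values describe chosen genes. Of the 1109, 93.1% passed the threshold, 307 higher (27.7%) and 725 lower (65.4%), so nothing is read from the call of Dcn and Lum. Under upper-quartile scaling over the listed genes the split was 353 higher and 285 lower (343 and 383 under median-ratio scaling), and the median difference of all listed genes was -0.03 in place of -0.22. Dcn and Lum were higher by 0.67 and 0.66 under that scaling. Its factors come from the listed genes alone, of which 766 of 1109 were lower in HOM, so nothing is read from the larger differences. The call of Dcn was lost without WT 1 (adjusted p = 0.0540) and without WT 2 (0.0530).

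Against HET, Dcn averaged 89.9 ± 14.2 FPKM in HOM and 63.9 ± 12.1 FPKM in HET (n = 3 each), a difference of 0.49 (SE 0.16, 0.10 to 0.88, limma adjusted p = 0.0484). Lum averaged 368 ± 32.2 FPKM in HOM and 273 ± 17.3 FPKM in HET, a difference of 0.43 (SE 0.09, 0.21 to 0.65, adjusted p = 0.0135). Of 1090 listed genes tested, 44.5% passed the threshold, 89 higher (8.17%) and 396 lower (36.3%); under upper-quartile scaling there were 306 higher and 223 lower, under median-ratio scaling 178 and 303. The groups did not overlap in Lum, nor in 61.9% of those genes, with HOM higher in 15.7%. Dcn lost its call without HOM 2, HOM 3, HET 2 or HET 3 (adjusted p 0.112 to 0.150), with a pseudocount of 0.1 (0.0538), a filter of 5 FPKM (0.0554) or no trend (0.0563), and with a replicate block (0.110; Lum 0.0549). Lum lost its call without HET 2 (0.0624) or HET 3 (0.0648); without HET 1 both were called, at 0.64 for Dcn and 0.47 for Lum. The HOM libraries are shared with the comparison with WT, so the results against HET and WT are not independent of each other.

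Within 200 kb of this pair the annotation places 4 other protein-coding genes. Kera, which encodes a further proteoglycan of the family, was at 0.18 to 0.48 FPKM in HET and 0.03 to 0.14 FPKM in WT, and Ccer1 and C030005K15Rik at or near 0. Epyc, which encodes epiphycan of the same family and is a supporting cell marker here, was at 952.13, 1050.07 and 963.31 FPKM in HOM, against 812.92, 668.72 and 605.61 FPKM in HET and 695.96, 687.62 and 787.59 FPKM in WT. Dcn and Lum defined the interval, so Epyc is its only further expressed gene. It was listed, as were 7.35% of the genes tested in HET against WT. It was also higher in HOM, as were 30.9% of the listed genes tested against WT. The differences from WT were 0.44 for Dcn, 0.42 for Lum and 0.45 for Epyc, with HOM 2 highest in each. Nothing is read from this shared direction. This interval was looked up by position after the values of Dcn and Lum had been seen.

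**Figure D4:**
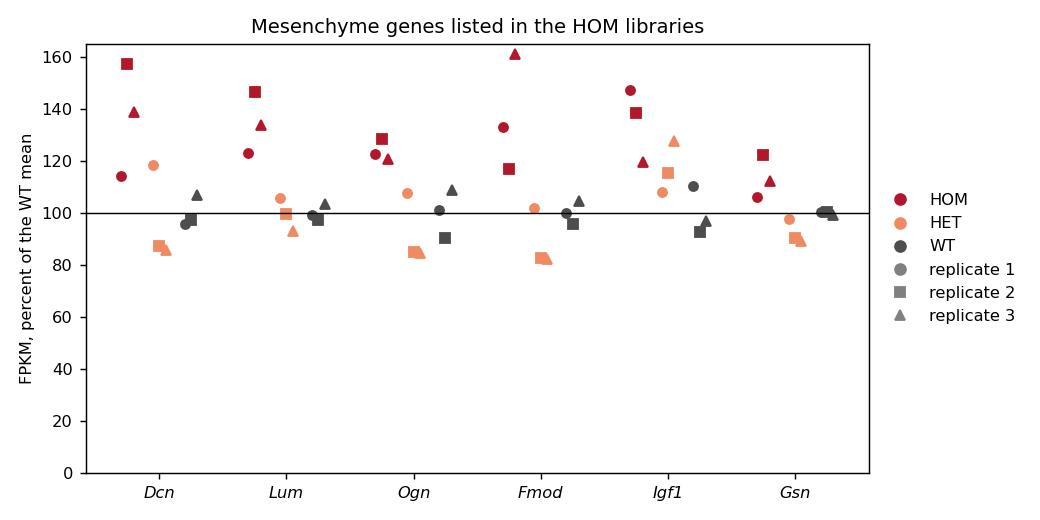
FPKM in each library as a percentage of the WT mean for the 6 mesenchyme genes listed in HOM, with HOM left of HET and WT; shapes are replicates and the line marks 100%. All HOM points lie above 100% for each gene, in genes listed for a difference from WT, and the HET points reach 118% for Dcn and 128% for Igf1, whose 3 HET points all lie above 100%.

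The 7 genes not listed in HOM have no value there, and none is inferred. Of the genes tested in HET against WT, 7.35% were listed, 2 of the 9 mesenchyme genes (22.2%) and 4 of 52 other mesenchyme and fibrocyte genes (7.69%). The HOM mean was above the WT mean in Dcn, Lum and the 4 others, against 30.3% of the 1131 listed genes.

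Those 4 were Ogn, Fmod, Igf1 and Gsn. Ogn, which encodes the proteoglycan osteoglycin, was at 52.35, 54.86 and 51.58 FPKM in HOM, against 46.02, 36.32 and 36.22 FPKM in HET and 43.20, 38.55 and 46.53 FPKM in WT, 124% of the WT mean. Fmod, which encodes the collagen-binding proteoglycan fibromodulin, was at 6.30, 5.54 and 7.63 FPKM in HOM, against 4.82, 3.91 and 3.89 FPKM in HET and 4.73, 4.53 and 4.96 FPKM in WT, 137% of the WT mean. Igf1, a growth factor gene, averaged 39.1 ± 4.11 FPKM in HOM, 33.9 ± 2.88 FPKM in HET and 29.0 ± 2.63 FPKM in WT (n = 3 each). Gsn, which encodes the actin-severing protein gelsolin, averaged 205 ± 14.7 FPKM in HOM, 167 ± 8.21 FPKM in HET and 180 ± 1.20 FPKM in WT. Limma called all 4 against WT, as it did 93.1% of the listed genes, so nothing is read from these calls, with differences of 0.31 for Ogn, 0.38 for Fmod, 0.42 for Igf1 and 0.18 for Gsn, and 3 of the 4 against HET, where it called 44.5%, with 0.42, 0.52 and 0.29 for Ogn, Fmod and Gsn but 0.20 for Igf1 (adjusted p = 0.1225). Igf1 was called against HET under median-ratio scaling (0.29, adjusted p = 0.0441) and upper-quartile scaling (0.43, 0.0173). Both scalings take their factors from the listed genes alone, so nothing is read from the calls gained. Upper-quartile scaling moved the differences from WT to 0.54 for Ogn, 0.58 for Fmod, 0.65 for Igf1 and 0.42 for Gsn. Against WT, the call of Fmod was lost without WT 1 or WT 2 (adjusted p 0.0540 and 0.0590) and that of Gsn without any single library but HOM 1 (0.0609 to 0.0760). Without HET 2 or HET 3, 0 of the 4 were called against HET; without HOM 3 Gsn was not called and Igf1 was (0.0465), and without HOM 1 Fmod was not.

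The wider list of mesenchyme and fibrocyte genes had 60 symbols, 59 of them in the files and 52 above the filter in HET and WT. Limma called 0 of the 52 in HET against WT, 1 had an unadjusted p under 0.05 (12 of 52 without HET 1, 4 of 52 without WT 3 and 16 of 51 without both), and their median difference was -0.08, with 9 higher and 43 lower, while the median over all 15391 genes was 0.00, with 7757 higher. These genes share libraries and cells, so the count of lower genes is a description. The most abundant were Sparc, a collagen-binding matrix protein gene, at 719 ± 43.5 FPKM in HET and 805 ± 58.4 FPKM in WT (n = 3 each; -0.16), Atp1b1 (-0.06), Tgfbi (-0.09) and Gsn (-0.11). The lowest differences were those of the type I collagen gene Col1a1, at 8.84, 5.26 and 6.29 FPKM in HET and 7.72, 17.58 and 10.44 FPKM in WT (-0.68, but -0.38 without WT 2 and -0.93 without WT 1), of the forkhead factor gene Foxc2 (-0.28) and of Clec3b (-0.24). WT 2, the library with the highest Col1a1, also had the highest sum of 9 bone markers, 60.7 FPKM against 30.4 to 39.1 FPKM in the other 5; the part of bone in its value was not tested. The highest were those of Slc26a4 (0.31), Igf1 (0.22) and Coch (0.17), the gene of the fibrocyte matrix protein cochlin. The HET libraries all lay below the WT libraries in 6 of the 52, while over all genes 3.12% did so. Among the 6 were the collagen genes Col6a1 (-0.21), Col5a1 (-0.16), Col5a2 (-0.13) and Col6a2 (-0.11), and Gsn (-0.11), genes named after their values were seen. The groups overlapped in the other collagen genes of the list, Col1a1, Col1a2, Col3a1, Col12a1, Col14a1 and Col6a3, the last higher in HET by mean difference (0.07). Without HET 1 and WT 3 together the median was -0.11, over 51 genes.

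**Figure D5:**
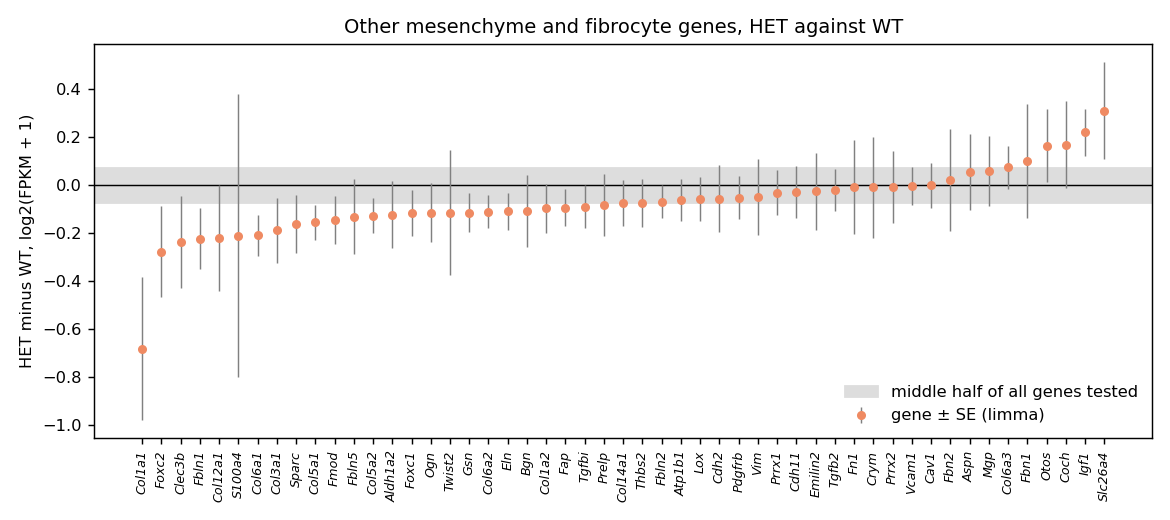
Difference between HET and WT, HET minus WT on log2(FPKM + 1), for the other mesenchyme and fibrocyte genes reported, with limma's standard error; the grey band runs between the quartiles of all 15391 genes tested, from -0.08 to 0.07. Most points lie below 0, Col1a1 lies lowest at -0.68 and Slc26a4 highest at 0.31, and none was called.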

How the data were processed

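RNA-seq of mouse cochlea at postnatal day 3 was analysed from FPKM values, which the authors deposited library by library with 2 decimals, per the file headers. Per the labels, RNA with poly(A) selection or rRNA removal was randomly primed and sequenced on an Illumina HiSeq; the submitters' processing notes name DESeq2 and mm8, but give no aligner, counter or annotation. GENCODE M21 (GRCm38) was joined by Ensembl identifier, and from it come positions and exon lengths; 51633 of 51912 had a symbol. Fragments were recovered from low values of genes with up to 600 bp of exon, where 99.4% to 100% were whole within 0.1; this depth was chosen to make them whole, and in HOM rests on 14 to 19 values. Counting intervals are exact Poisson at 95% and cover counting error only.

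Groups were compared with limma 3.58.1 in R 4.3.3 (two-sided, mean-variance trend, Benjamini-Hochberg over all genes tested, threshold 0.05) on log2(FPKM + 1), a scale that understates changes of low genes, keeping genes that reached 1 FPKM in 3 or more of a fit's 6 libraries. The code was tested on simulated data. HOM fits cover the listed genes alone. Nothing says whether libraries are separate animals, so p-values measure the spread between libraries. The members, lists and tests were chosen with earlier results of these data known. All 9 members are named; of the other mesenchyme genes, the 4 most abundant, the 3 lowest and 3 highest differences in HET against WT and those listed in HOM. Otos, the collagen genes of the list other than Col1a1, and the neighbours of Dcn and Lum were named outside this rule, after their values were seen. Alternatives covered pseudocount, filter, scaling, trend, a replicate block, 1 joint fit of all 3 groups and each library left out. The blank rows at the end of the HOM files were left out. A gene of the wider mesenchyme list is counted in that list's totals but is not reported here by name or in the plot.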

Additional observations from a re-analysis of the deposited data

How the results depend on the processing

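In HET against WT, 0 of the 9 genes and 0 of the other mesenchyme genes were called under each alternative run, of which the joint fit of all 3 groups tested 2 of the 9 and 4 of the others. The count over all genes was 0 to 1 with single libraries left out and 5 in the joint fit, which covers 1131 listed genes. Differences near 0 changed sign with the libraries: left-out values ran from -0.27 to 0.019 for Pou3f4, -0.36 to 0.093 for Car3, -0.20 to 0.025 for Dcn, -0.054 to 0.038 for Lum, -0.083 to 0.19 for Pdgfra, -0.085 to 0.032 for Postn and -0.062 to 0.11 for Tbx18. Tbx18 was at -0.015 without HET 1 and WT 3 together. In HOM against WT, 588 to 864 genes were called with single libraries left out, 632 with a filter of 5 FPKM and 638 under upper-quartile scaling, against 1032 (588 without WT 1, 594 without WT 2, 672 without WT 3); 1 to 2 of Dcn and Lum, and 2 to 4 of the other 4 genes, were called with a library left out. In HOM against HET, 116 to 431 genes were called with a library left out and 272 with the filter of 5 FPKM, against 485 (142 without HET 2, 116 without HET 3); of Dcn and Lum 0 to 2, and of the other 4 genes 0 to 3, were called with a library left out, and 1 of Dcn and Lum, Lum, with a pseudocount of 0.1, with that filter or with no trend. The causes were not tested, beyond the smaller number of genes or libraries in a fit. Replicate numbers did not pair HET with the other groups. Same-numbered HET and WT libraries correlated in their deviations at -0.52, 0.29 and -0.47, and HOM and HET at -0.32, 0.09 and -0.16. Same-numbered HOM and WT libraries correlated at 0.25, 0.09 and 0.28. Each of these was the highest for its HOM library, with the other pairs at -0.29 to 0.10. Whether replicate numbers pair HOM with WT is thus not settled. With a replicate block, 304 genes and 0 of Dcn and Lum were called in HOM against HET (adjusted p = 0.110 for Dcn and 0.0549 for Lum), and 0 genes in HET against WT; both were called in HOM against WT.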
